A study of Brassica napus with 6 samples.

Results

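A set of 89 genes of rapeseed (Brassica napus) shoot apices followed a division of the 6 libraries that cut across the genotypes. The study compared BnaC3.lfy△I2 plants, in which the second intron of the C3 copy of LEAFY was deleted (the mutant, 3 libraries), with plants of the cultivar Westar (the wild type, 3 libraries). Both were grown in a chamber, polyadenylated RNA was sequenced from shoot apices, and the deposited values were raw read counts per gene. The age of the plants, the number of apices or edited lines behind a library, and whether each library came from different plants were not stated in the labels. The p-values below therefore reflect only how far these libraries vary among themselves, which could be technical variation.

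The 89 genes were chosen by their own counts. Set 1 held mutant libraries 1 and 2 and wild-type library 1, and set 2 held mutant library 3 and wild-type libraries 2 and 3, so each set mixed the genotypes. A gene was taken when its lowest library in one set was at least 1.5 times its highest library in the other, on the count divided by the library total and multiplied by 1000000 (CPM), plus 0.5, and when its mean lay from 2 to under 500 CPM. This ratio of lowest to highest is called the gap below. Genes of C03, A09 and the unplaced scaffolds were left out, as were 12 genes of that level in which mutant library 3 stood 3-fold or more apart from all other libraries, none of which had such a gap. The table held 100194 genes, and 33608 of them had the level and place to be chosen. The sets were drawn from measured values and are not groups of the study, so the difference between them is described here and not tested.

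The shoot apex carries the stem cells of the plant and the youngest organs around them, and it changes from making leaves to making flowers when the floral programme, in which LEAFY acts as a transcription factor, takes over. An apex sample taken by hand is a mixture of meristem, young leaves or flower buds and stem, and many of its genes follow age, light, time of day or stress. Rapeseed joins an A and a C subgenome, so most genes have a near copy in the other. In whole tissue a lower count can come from fewer cells of a type or from less RNA per cell, and these cannot be told apart. The deposited IDs name a chromosome and a running number, and 0 of them matched the RefSeq gene table of the Da-Ae assembly. No member is therefore given a function, neither the edited LEAFY copy nor a marker of apex, leaf or flower could be read, and no sequence is shown.

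The set of 89 leaned almost wholly one way. In 85 genes the libraries of set 1 were higher, 0.253% of the genes that could be chosen, and in 4 genes those of set 2 were, 0.0119%. At smaller gaps the lean was less. Between a gap of 1 and 1.2 there were 1007 genes higher in set 1 and 1179 higher in set 2, and between 1.2 and 1.5 there were 112 and 61. From 2 upwards there were 41 higher in set 1 and 0 higher in set 2, and 15 of the 41 reached a gap of 3. These counts come from the contrast that chose the genes. The same gap laid between the genotypes was passed by 80 genes with the mutant higher, 0.238%, and by 53 with the wild type higher, 0.158%. None of the 89 was among these genes, since each set holds libraries of both genotypes.

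The choice ended in a continuous range of values. The last gene taken on the set 1 side, on C08, had a gap of 1.502, with 20.9, 57.4 and 34.3 CPM in mutant 1, mutant 2 and wild type 1, against 13.8, 12.6 and 12.5 CPM in mutant 3, wild type 2 and wild type 3. The first gene not taken, on C09, had a gap of 1.496, with 3.27, 5.57 and 5.37 CPM in the libraries of set 1, against 1.76, 2.02 and 1.86 CPM in set 2. On the set 2 side the last gap taken was 1.523 and the first not taken was 1.432. The same gap was passed by 17 genes higher in set 1 and 1 higher in set 2 on C03, A09 and the scaffolds, all outside the rule. Among 21746 genes with a mean above 0 and under 2 CPM there were 22 and 4, and among 70 genes of 500 CPM or more there were 0 and 0.

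**Figure D1:**
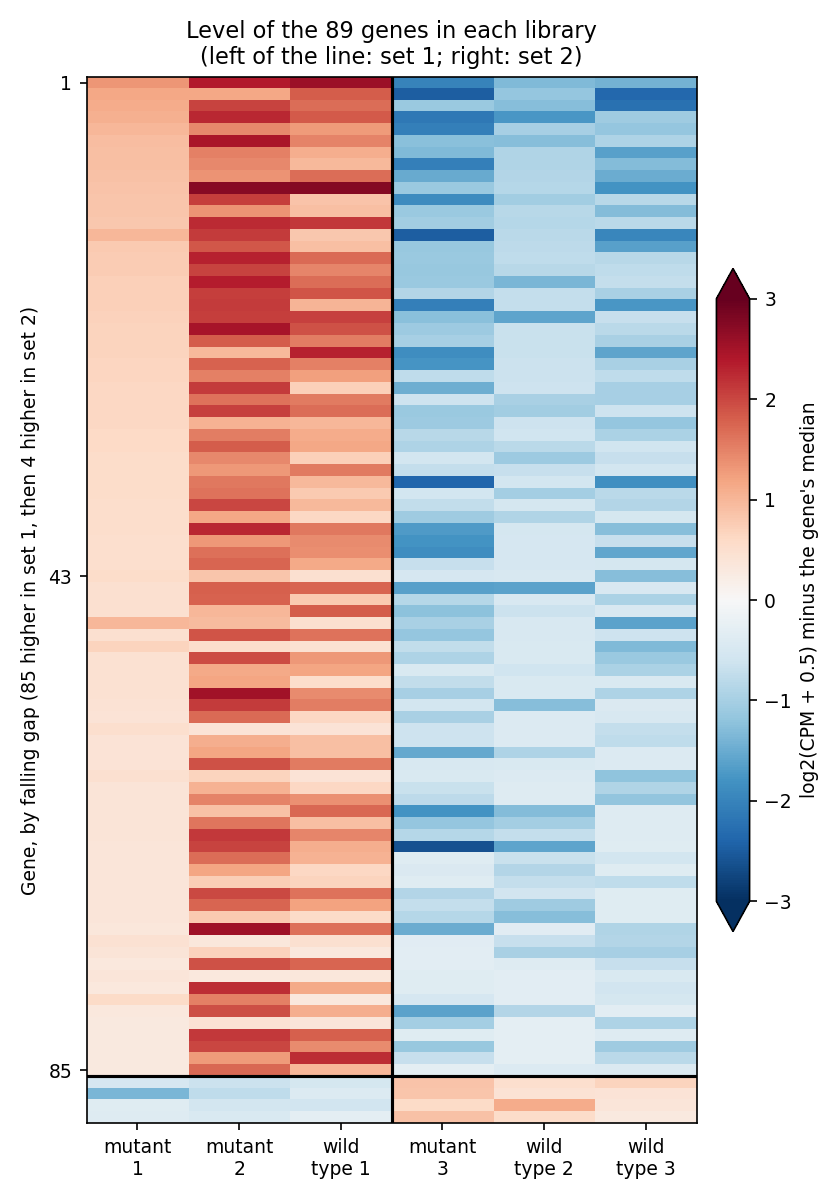
Level of the 89 genes (rows, by falling gap) in the 6 libraries (columns), as log2(CPM + 0.5) minus the median of that gene over the libraries, with set 1 left of the vertical line and set 2 right of it. Mutant 2 is the darkest red column in most of the 85 upper rows, mutant 1 is the palest of set 1, and the 4 rows under the horizontal line run the other way.

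The 85 genes lay somewhat below the genes that could be chosen in mean level, which the rule limits, and well below them in set 2. Their mean level had a median of 9.08 CPM (quartiles 4.09 and 18.0), against 11.5 CPM (quartiles 5.47 and 24.2) over the 33608 genes. In the libraries of set 1 their median level was 8.46 CPM in mutant 1, 21.5 CPM in mutant 2 and 15.0 CPM in wild type 1. In set 2 it was 2.26 CPM in mutant 3, 3.15 CPM in wild type 2 and 3.12 CPM in wild type 3. Over all 33608 genes the library medians lay between 11.0 and 11.8 CPM. Summed, the 85 genes took 0.116%, 0.252% and 0.188% of all counts in mutant 1, mutant 2 and wild type 1, and 0.0375%, 0.0470% and 0.0405% in mutant 3, wild type 2 and wild type 3. The median difference of the set means was 1.97 on the log2(CPM + 0.5) scale, and the largest was 3.67.

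Some members were close to silent in set 2. All 3 libraries of set 2 were under 1 CPM in 11 of the 85 genes and under 2 CPM in 24. Over the 33608 genes these shares were 0.0387% and 0.265%. Such genes reached a mean of 2 CPM only through set 1, so their low level in set 2 follows from the choice. No member had 0 counts in any library, but the lowest counts were 1 in mutant 3, 8 in wild type 2 and 2 in wild type 3, so the folds of the lowest genes rest on few reads. In set 1 the lowest counts of any of the 85 were 22 in mutant 1, 75 in mutant 2 and 73 in wild type 1.

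**Figure D2:**
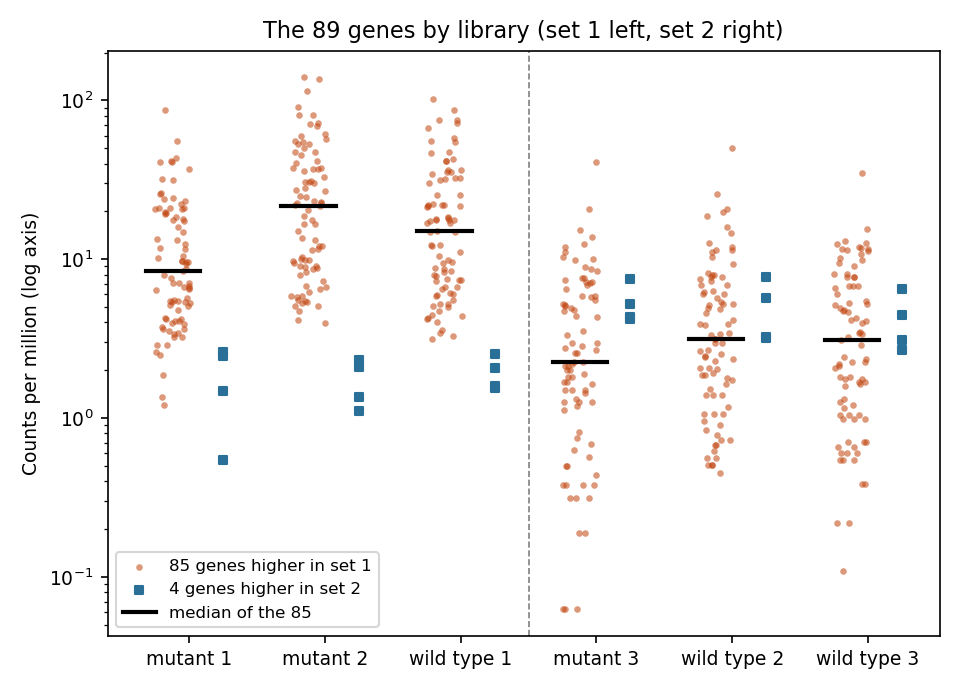
CPM on a log axis of each of the 85 genes higher in set 1 (circles, median as a bar) and the 4 higher in set 2 (squares) in every library. The medians of the 85 are 8.46, 21.5 and 15.0 CPM in mutant 1, mutant 2 and wild type 1, and 2.26, 3.15 and 3.12 CPM in mutant 3, wild type 2 and wild type 3.

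BnaA05T0315100WE, on A05, had the widest gap, 6.24. It had 324, 716 and 992 counts in mutant 1, mutant 2 and wild type 1 (17.7, 37.6 and 42.6 CPM), against 21, 43 and 41 counts in mutant 3, wild type 2 and wild type 3 (1.32, 2.42 and 2.25 CPM). Both genotypes held libraries at the high and at the low level. By genotype it averaged 18.9 ± 18.2 CPM in the mutant and 15.8 ± 23.3 CPM in the wild type (SD, n = 3 each), and the log2 fold change of mutant over wild type was 0.32 ± 1.11 (SE; edgeR quasi-likelihood test, adjusted p = 0.942).

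The next gene on A05 by running number was also a member, with the ninth widest gap of the 85. It had 75, 111 and 173 counts in mutant 1, mutant 2 and wild type 1, against 6, 15 and 7 in mutant 3, wild type 2 and wild type 3. In both neighbours wild type 1 was the highest library, which was so in 12 of the 85 genes. Whether the pair are copies that share reads cannot be read from the IDs, and the labels do not say how reads matching several places were counted.

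BnaA03T0107600WE, on A03, followed with a gap of 4.98. It had 119, 123 and 245 counts in mutant 1, mutant 2 and wild type 1 (6.50, 6.47 and 10.5 CPM), against 1, 16 and 2 counts in mutant 3, wild type 2 and wild type 3 (0.0628, 0.899 and 0.110 CPM). It averaged 4.34 ± 3.71 CPM in the mutant and 3.85 ± 5.803 CPM in the wild type (SD, n = 3 each; log2 fold change 0.22 ± 1.17 SE, edgeR adjusted p = 0.966). After it came a C09 gene with 216, 430 and 412 counts in set 1 and 34, 33 and 13 in set 2 (each set with its mutant libraries given first), and an A07 gene with 129, 317 and 287 counts in set 1 and 5, 10 and 22 in set 2.

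The most abundant members showed the division at a higher level. The highest by mean, on C08, had 86.7, 136 and 102 CPM in mutant 1, mutant 2 and wild type 1, against 41.0, 49.8 and 34.9 CPM in mutant 3, wild type 2 and wild type 3. A gene on A01 had 41.6, 139.6 and 86.3 CPM in the same libraries of set 1, against 8.48, 19.7 and 11.6 CPM in set 2. A gene on A06 had 55.8, 115 and 74.7 CPM in set 1, against 6.91, 25.8 and 10.2 CPM in set 2. In all 3 the order within set 1 was mutant 2, then wild type 1, then mutant 1.

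That order, which the rule did not set though it read the same values, was shared widely. The 33608 genes were not chosen for a wide spread, so their shares are not a matched background. Mutant 2 stood above wild type 1 and wild type 1 above mutant 1 in 64 of the 85 genes, 75.3%, and in 14.2% of the 33608. Mutant 2 was the highest library of set 1 in 69 of the 85, against 29.0% of all genes, and mutant 1 the lowest in 74, against 40.9%. Between these mutant libraries, which share a genotype, mutant 2 was at least 1.5 times mutant 1 in 65 of the 85, where 5.08% of the 33608 genes were, and the reverse held for 0 of the 85 and 2.84% of all. The median of mutant 1 over mutant 2 was 0.464 in the 85 genes (quartiles 0.370 and 0.650) and 0.975 over all genes. Each library has no replicate of its own, so these ratios compare libraries and carry no test.

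Wild type 1 lay between the 2 mutant libraries of set 1 in 66 of the 85 genes, and in 23.7% of all. The median ratio to wild type 1 was 0.629 for mutant 1 (quartiles 0.485 and 0.858) and 1.33 for mutant 2 (quartiles 1.08 and 1.58). Over all genes these medians were 0.935 and 0.963. Wild type 1 was at least 1.5 times mutant 1 in 45 of the 85 (10.7% of all genes), and mutant 1 was 1.5 times wild type 1 in 0 (5.55%). Mutant 2 was at least 1.5 times wild type 1 in 29 of the 85 (6.52%), and wild type 1 was 1.5 times mutant 2 in 5 (8.23%). Counted from the mean of set 2, the excess in mutant 1 was a median 35.6% of that in mutant 2 (quartiles 25.2% and 53.0%), and the excess in wild type 1 was 68.5% of it (quartiles 53.9% and 90.4%).

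**Figure D3:**
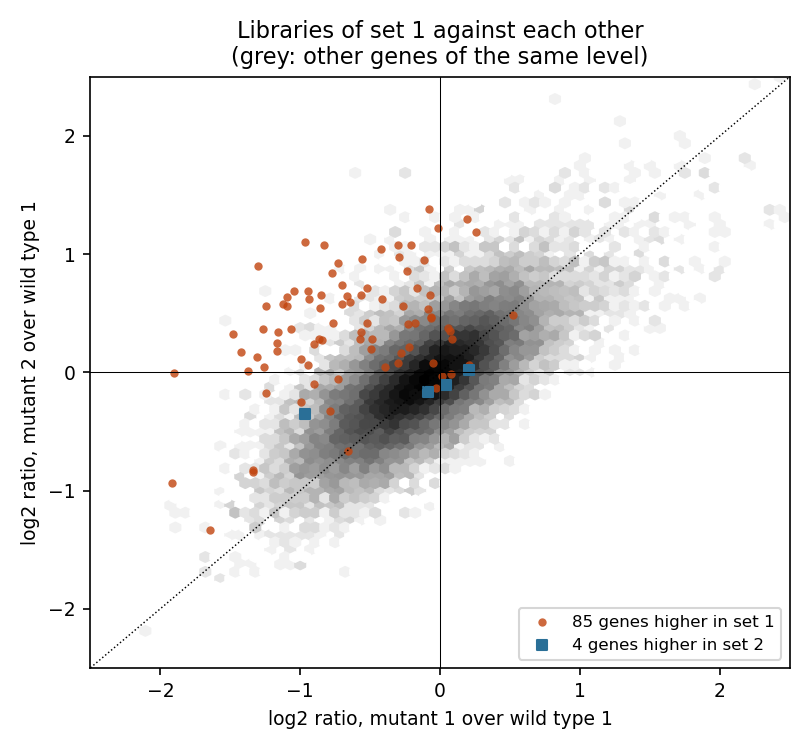
Log2 ratio of mutant 2 to wild type 1 against that of mutant 1 to wild type 1, on CPM + 0.5, for the 85 genes (circles), the 4 genes (squares) and the other genes of the same level (grey, darker where more genes lie, log shading; axes end at 2.5). Most circles lie in the upper left part, above the dotted line of equal values, where mutant 2 exceeds wild type 1 and mutant 1 is below it.

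A minority of members departed from the order of mutant 2, then wild type 1, then mutant 1, which held in 64 of the 85 genes. A separate count set both mutant libraries of set 1 against wild type 1. They were at least 1.5 times below it in 5 of the 85 genes, near the 4.78% of all genes. They were at least 1.5 times above it in 0, against 3.24% of all. A gene on C06 was the clearest of the 5 by its genotype fold: it had 97 and 127 counts in mutant 1 and mutant 2 and 409 in wild type 1, against 8, 32 and 13 in mutant 3, wild type 2 and wild type 3. This C06 gene was singled out after its values were seen.

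Within set 2 the libraries were less ordered. Mutant 3 was the lowest of set 2 in 44 of the 85 genes and the highest in 11, against 37.3% and 36.2% of all genes. Wild type 2 was the highest of the set in 48 and wild type 3 in 26, against 28.0% and 35.7% of all genes. Mutant 3 was at least 1.5 times below both wild-type libraries in 10 of the 85 (4.36% of all genes) and 1.5 times above both in 1 (2.30%). The median ratio of mutant 3 to the mean of wild types 2 and 3 was 0.903 in the 85 genes and 1.001 over all.

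The 4 genes higher in set 2 were low and narrow. They lay on A03, A04 and C08 (2 genes), had gaps of 1.52 to 2.00 and means of 2.31 to 4.52 CPM. BnaA04T0136200WE had 48, 44 and 59 counts in mutant 1, mutant 2 and wild type 1 (2.62, 2.31 and 2.54 CPM), against 119, 102 and 118 in mutant 3, wild type 2 and wild type 3 (7.47, 5.73 and 6.46 CPM). It averaged 4.14 ± 2.89 CPM in the mutant and 4.91 ± 2.09 CPM in the wild type (SD, n = 3 each; log2 fold change -0.22 ± 0.47 SE, edgeR adjusted p = 0.896).

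BnaC08T0156600WE, on C08, had 10, 21 and 36 counts in mutant 1, mutant 2 and wild type 1 (0.546, 1.104 and 1.55 CPM), against 69, 57 and 57 in mutant 3, wild type 2 and wild type 3 (4.33, 3.20 and 3.12 CPM). It averaged 1.99 ± 2.04 CPM in the mutant and 2.62 ± 0.933 CPM in the wild type (SD, n = 3 each; log2 fold change -0.38 ± 0.63 SE, edgeR adjusted p = 0.856). With a lower limit of 5 CPM on the mean, 0 of the 4 genes would be taken, and 57 of the 85 would.

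Between the genotypes, 0 of the 89 genes passed the test. The edgeR quasi-likelihood test with Benjamini-Hochberg adjustment called 60 of 48524 genes higher in the mutant, 0.124%, and 34 lower, 0.0701%. Called genes were this rare throughout, so the 0 is not a trait of the members. The rule also makes the genotype ranges overlap in every member. All 89 members were tested, and at an unadjusted p under 0.05 there were also 0, against 11.9% of the 33608 genes. The choice took genes with a wide spread inside each genotype, and the count was 5 with the replicate number as a block, 22 without mutant library 3 and 61 without wild-type library 1. DESeq2 called 0 of the members too, with 1 at an unadjusted p under 0.05. The 11.9% belongs to the main fit, and no such share was taken for the other fits or DESeq2. Their counts therefore have no background here. Without wild-type library 1 or mutant library 3, the libraries left of that genotype all lie in the same set. Those counts therefore partly follow from the choice of the genes. In the main fit the members nearest to passing were a C06 gene (log2 fold change 0.996 ± 0.46 SE, edgeR adjusted p = 0.453) and an A04 gene (0.79 ± 0.37 SE, edgeR adjusted p = 0.461), both chosen for mention by these values.

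The genotype contrast is not independent of how the genes were chosen, because 2 of the 3 mutant libraries and 1 of the 3 wild-type libraries are in set 1. The log2 fold change was above 0 in 81 of the 85 genes with a median of 0.63, against 0.00 over the 48524 genes. Its sign turned only without mutant library 2, where the median was -0.19, with 31 of the 85 above 0. Without wild-type library 1 the median was 1.72, with 85 above 0, and without mutant library 1 it was 0.67, with 80 above 0. The median without mutant library 3 was 1.03, without wild-type library 2 it was 0.33, and without wild-type library 3 it was 0.31. The standard error of the fold had a median of 0.75 in the 85 genes and 0.18 over the 33608. The spread inside a genotype was wide by choice, with a median coefficient of variation of 84.3% in the mutant and 94.5% in the wild type, against 14.4% and 12.4% over the 33608.

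The genotypes were also compared within each set. Between mutants 1 and 2 and wild type 1 the median log2 difference over the 85 genes was -0.10 (quartiles -0.39 and 0.13), against -0.07 over the 33608. Between mutant 3 and wild types 2 and 3 it was -0.15 (quartiles -0.60 and 0.01), against 0.00. A 1.5-fold difference in the same direction in both sets was seen in 0 of the 89 genes, where 149 of the 33608 were higher and 125 lower in the mutant. Such genes were rare throughout, so the 0 is not a trait of the members. One arm of each comparison is a single library, so these are values with no test.

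**Figure D4:**
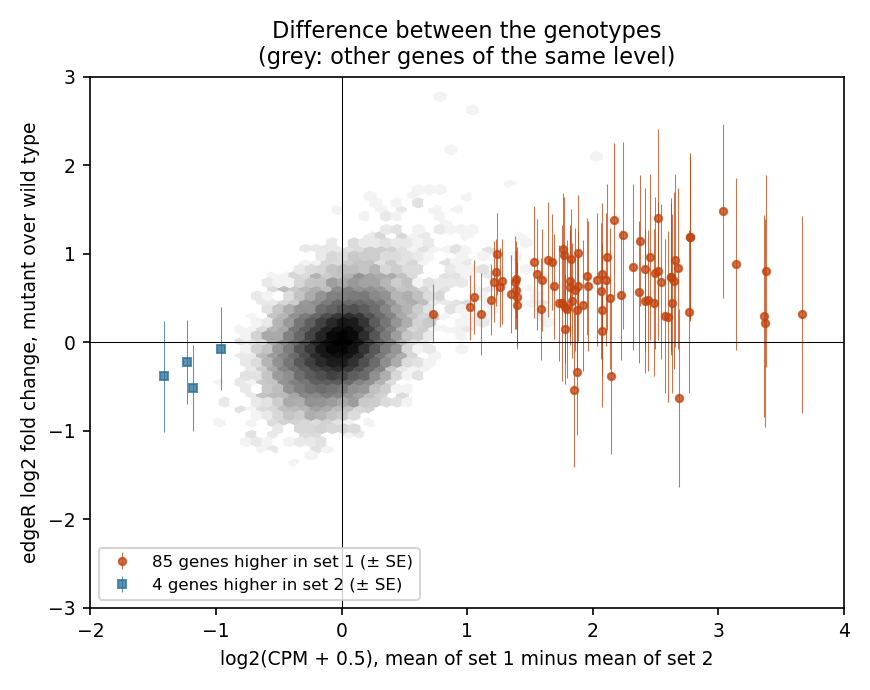
Log2 fold change of mutant over wild type from edgeR (vertical axis, bars are ± SE for the 89 genes) against the difference of the set means in log2(CPM + 0.5) (horizontal axis), with other genes of the same level in grey (log shading, axes end at the values shown). The 85 genes lie to the right at a median fold change of 0.63 with wide bars, and 81 of them are above 0.

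The members were scattered over the genome. Every one of the 17 chromosomes in the choice held between 2 and 12 of them. C08 held 12 of 2121 genes, 0.566%, and A03 held 11 of 2771, 0.397%, while C02 held 2 of 1980, 0.101%. The A subgenome held 47 of 16037 genes, 0.293%, and the C subgenome 42 of 17571, 0.239%. On A10, where mutant 3 was lower across the chromosome (median log2 deviation -0.32 from the other libraries), there were 5 members, and on C09, the only one of the 19 placed chromosomes with a median deviation below 0 in wild type 1 (-0.02), there were 6. Without these chromosomes 74 genes higher in set 1 and 4 higher in set 2 remained.

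Neighbours were few. Members at most 5 running numbers apart formed 3 pairs, on A02, A03 and A05, all higher in set 1. The A02 pair differed in the size of the set difference, with 186, 181 and 223 counts in mutant 1, mutant 2 and wild type 1 for one gene, against 70, 92 and 75 in set 2, and 381, 1046 and 1270 for the other, against 81, 70 and 142. The nearest other genes of the same level on both sides of each of the 85 members gave 170 values, with repeats where members are adjacent. Members were passed over in this search, so no gene with the gap could be among the 170. Their median set difference was -0.01 in log2 (quartiles -0.11 and 0.10), and 80 of the 170 were above 0. Over the 33608 genes the median was -0.006 (quartiles -0.13 and 0.11).

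**Figure D5:**
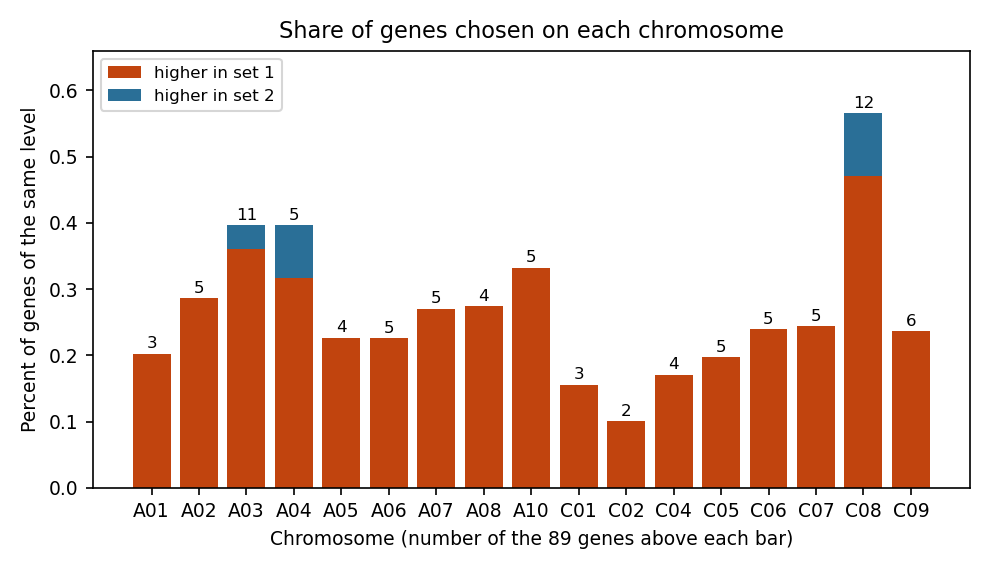
Percent of the genes of the same level that were chosen, by chromosome, with the number of chosen genes above each bar. C08 is the tallest at 0.566% (12 genes) and C02 the lowest at 0.101% (2 genes), and the genes higher in set 2 are on A03, A04 and C08.

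Sequencing depth ranked with the sets. Mutant 1, mutant 2 and wild type 1 held 18321109, 19017318 and 23261028 counts in genes, and mutant 3, wild type 2 and wild type 3 held 15922207, 17797615 and 18255399, so all libraries of set 1 were deeper, the nearest by a small margin. Mutant 2 had fewer counts in total than wild type 1 and a higher CPM in 71 of the 85 genes, against 43.4% of the 33608. Genes reaching 10 counts numbered 48041 to 49518 in set 1 and 47652 to 48369 in set 2, and the 10 most abundant genes took 2.93% to 4.31% of the counts in set 1 and 3.39% to 4.20% in set 2, both overlapping. The part of depth in the members' levels was not tested.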

How the data were processed

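The authors deposited raw read counts per gene for 6 libraries, 3 of BnaC3.lfy△I2 and 3 of Westar, in 1 table with 1 column per library. HISAT2 2.2.1 and featureCounts were used, per the submitters' processing notes. Genome build, annotation, strand setting and the treatment of reads with several matches were not stated there, so counts of near-identical copies and overlapping genes are uncertain. Replicate numbers came from the titles. Depth was 15922207 to 23261028 counts, and counts of a few reads carry large counting error.

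CPM was the count divided by the library total, times 1000000, with 0.5 added before ratios and logs. The rule for the 89 genes is given above. The members and the tests were chosen with earlier results of these data known. By ID, the 2 genes with the widest gap in each direction were named, since IDs were not paired with names.

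Genotypes were compared with edgeR 4.0.16 (R 4.3.3) by its quasi-likelihood F test, with TMM scaling, filterByExpr at a minimum count of 10 and genotype as the single model term. P-values were adjusted by Benjamini-Hochberg over 48524 genes, and genes were called at an adjusted p under 0.05. Standard errors were taken from the F statistic. The script was tested on simulated data. Alternatives were other scalings, filters and pseudocounts, other limits of the rule, DESeq2 1.42.0, a replicate block and leaving out libraries.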

Additional observations from a re-analysis of the deposited data

How the results depend on the processing

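The number of genes higher in set 1, 85, and in set 2, 4, followed the limits of the rule. It was 197 and 65 at a gap of 1.2, 41 and 0 at a gap of 2, and 15 and 0 at a gap of 3. With a mean of at least 5 CPM 0 were higher in set 2, and with at least 10 CPM the counts were 39 and 0. With no pseudocount 7 were higher in set 2. Other scalings gave 89 and 4, holding 84 of the 85. Leaving out 1 library, with the mean and the gap taken over the other 5, gave 79 (without mutant 2) to 195 (without wild type 1) in set 1, with 181 without mutant 1 and 169 without wild type 2, and 10 (without mutant 2) to 78 (without wild type 1) in set 2. Scalings with TMM or median-of-ratios, added after the data were seen, put mutant 1 below wild type 1 in 68 of the 85 genes in place of 76.

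The 94 genes called between the genotypes became 451 with no filter, 729 with DESeq2 at its defaults (67780 genes, without the low-count filter), 49 with the replicate block, and 18 (without wild type 1) to 167 (without mutant 3) with 1 library left out. The cause was not tested. The number of members called was 0 in all of these. The rule makes the genotype ranges overlap over the 6 libraries in every member, so this 0 partly follows from the choice. Without wild type 1 and mutant 3, an alternative added after the data were seen, 51 genes and 5 members were called, but the genotypes are then the sets themselves and this repeats the choice of the genes. Deviations of same-numbered libraries correlated at -0.128, -0.081 and 0.144, and those of differently numbered libraries at -0.139 to 0.253. These few values cannot show whether the numbers pair libraries. The block called 0 members.

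With 1 library left out, the log2 fold change of mutant over wild type ranged from -0.65 to 3.05 for BnaA05T0315100WE, -0.33 to 3.14 for BnaA03T0107600WE, -0.93 to 0.068 for BnaA04T0136200WE and -1.60 to 0.060 for BnaC08T0156600WE, and none of these passed the test.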
